A study of Mus musculus with 112 samples.

Results

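RCOR1/2 DKO ESCs were compared with RCOR2 KO ESCs, which asks what RCOR1 still does in embryonic stem cells that have no RCOR2. The comparison took in the 4 RNA-seq libraries labelled RCOR1/2 double knockout (DKO) and the 4 labelled RCOR2 knockout (KO), 8 of the 112 libraries in the series. All cells were V6.5 mouse ESCs kept in the naive state, in serum-free N2B27 medium with LIF and the inhibitors PD0325901 (MEK) and CHIR99021 (GSK), together called 2i. Both groups carried the RCOR2 deletion, and the DKO cells in addition carried a deletion in Rcor1. Both deletions were made with pairs of CRISPR/Cas9 guides that flank a region, and single clones were picked. The study used independent clones of each genotype as its biological replicates, but the labels do not say which library came from which clone, so the p-values below measure the spread between these libraries, which may in part be technical. Further libraries served as references: 11 WT ESC, 4 RCOR1 KO ESC and 6 LSD1 KO ESC libraries, all in the same medium. Another 4 ESC libraries came from a DKO line that carries a doxycycline-inducible LSD1 gene, left without doxycycline. Embryoid bodies (EBs, aggregates left to differentiate without 2i and LIF) of the WT, RCOR1 KO, RCOR2 KO and DKO genotypes were also used.

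RCOR1 and RCOR2 are paralogous scaffold proteins of the CoREST co-repressor complex. They bridge the histone demethylase LSD1, encoded by Kdm1a, and the histone deacetylases HDAC1 and HDAC2, and bring both enzymes to nucleosomes. CoREST is best known for silencing neuronal genes outside the nervous system, and in ESCs LSD1 acts at enhancers of lineage genes and of pluripotency genes.

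The 8 libraries held 34884745 to 46934569 counts over 25209 genes. Of these counts, the ribosomal RNA precursor Rn45s took 12.6% to 15.2% in the DKO and 23.4% to 24.9% in the RCOR2 KO libraries. Within RCOR2 KO, libraries 1 and 3 deviated from the group mean together (r = 0.600 across 9645 genes) and so did libraries 2 and 4 (r = 0.655). Within DKO the libraries that deviated together were 1 with 2 (r = 0.199) and 3 with 4 (r = 0.172). With each such pair summed into 1 sample, 1297 genes were higher and 1385 lower in DKO.

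The libraries also fell into sets that the genotypes do not describe. For what follows, a gene was taken to reach from its first to its last annotated base on a chromosome. One annotated at distant places thus spans all that lies between them, and some overlaps may come from such spans alone. Of the 2134 genes that lie wholly inside a gene on the other strand, 62.5% to 64.8% had a count in the RCOR2 KO libraries and in WT libraries 6 and 7, and 60.9% and 63.1% in WT 10 and 11. The share was 51.6% to 53.5% in WT libraries 8 and 9 and in RCOR1 KO, and 56.4% to 57.9% in DKO. B3galt2, a galactosyltransferase gene inside Cdc73 on the other strand, had 5.94, 6.31, 5.49 and 6.17 normalised CPM (counts scaled to a common library size after TMM adjustment) in RCOR2 KO libraries 1 to 4 and 5.07 and 4.06 in WT 6 and 7. It had no count at all in DKO, RCOR1 KO, WT 8 or WT 9. Between WT 6 and 7 and WT 8 and 9, libraries of one genotype, 1299 of 16543 genes (7.85%) were called different, 993 of them higher and 306 lower in WT 6 and 7. A difference between DKO and RCOR2 KO can therefore be one between library sets, and these cannot be told apart within the 8 libraries.

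**Figure D1:**
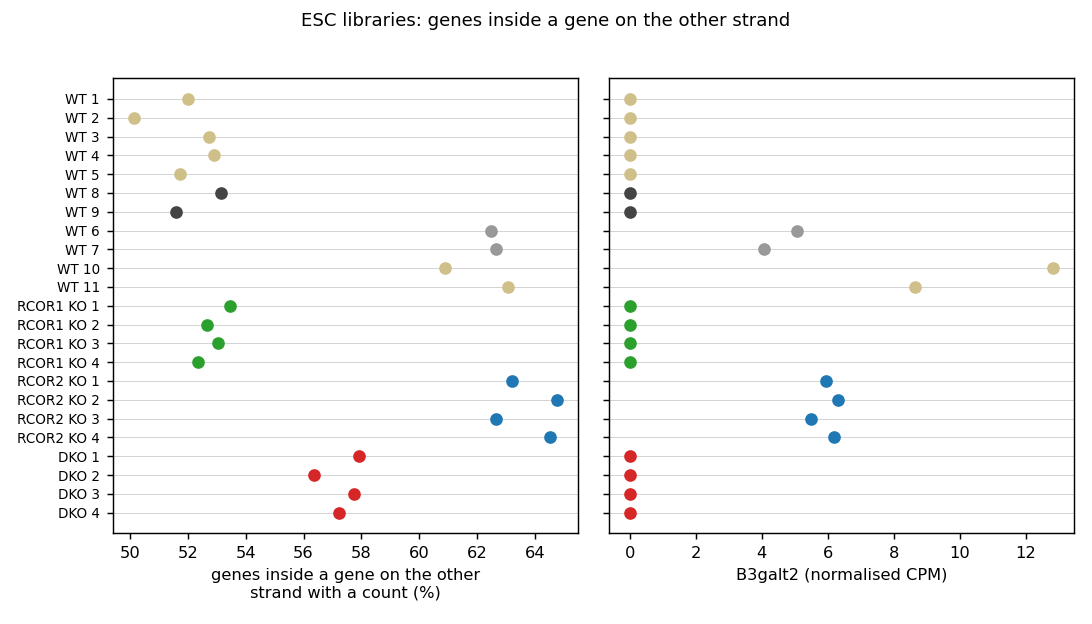
Each point is one ESC library, with the percentage of the genes inside an opposite-strand gene that had a count (left) and the normalised CPM of B3galt2 (right), coloured by set for WT 6 to 9 and by genotype for the mutants. RCOR2 KO lies with WT 6 and 7 at 62.5% to 64.8%, RCOR1 KO with WT 8 and 9 at 51.6% to 53.5% and DKO between them at 56.4% to 57.9%, and B3galt2 has no count in DKO.

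For this reason each gene was read from 2 differences. The direct difference compared the 4 DKO with the 4 RCOR2 KO libraries. The difference against own WT took DKO relative to WT 8 and 9 and subtracted RCOR2 KO relative to WT 6 and 7, the WT libraries deposited beside each group. A gene was called at an adjusted p below 0.01 and a log2 difference beyond 1 in either direction, by edgeR's quasi-likelihood test with Benjamini-Hochberg adjustment over all genes tested, and every adjusted p below comes from that test. Directly, 1690 of 15414 genes (11%) were higher and 1550 (10.1%) lower in DKO than in RCOR2 KO. Against own WT, 810 of 16543 genes (4.9%) were higher and 354 (2.14%) lower. Both differences called 552 genes higher (3.58% of 15414) and 264 lower (1.71%), and the results below are led by these 816 genes. Every count of a gene list below is to be set beside these shares over all genes. They are 11% higher and 10.1% lower directly, and 3.58% and 1.71% in both. The choice of WT libraries carries weight here. Without WT 9 the genes called higher in both fell to 367, without WT 6 the genes called lower in both fell to 172, and 258 of the 552 (46.7%) and 147 of the 264 (55.7%) kept both calls when each of the 12 libraries was left out in turn. Of the 39 rises in both differences that are named, 23 lost a call in at least one of these runs, namely Robo4, Lama4, Gata3, Krt18, Ocln, Grhl2, Esrp1, Dcdc2a, Rhobtb1, AU015836, Mmp2, Snai1, Nefl, Lef1, Cd34, Peg10, Sgce, Igf2, Peg12, H2-D1, Cd74, Ciita and Brdt, and so did 5 of the 28 named falls, namely Nr0b1, Ddit4, Cars, Ap1m2 and Cdkn1c.

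The direct falls were the side more touched by the library sets. Of the 1550 genes called lower, 623 (40.2%) were also called in the same sense between the WT sets, against 186 of the 1690 called higher (11%). Among tested genes inside an opposite-strand gene 21% were called lower directly, against 8.52% of tested genes with no gene on the other strand. Of the genes called in both differences, 431 of 552 higher (78.1%) and 213 of 264 lower (80.7%) had no such neighbour. This was close to the share over all genes tested in both fits, 11918 of 15414.

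**Figure D2:**
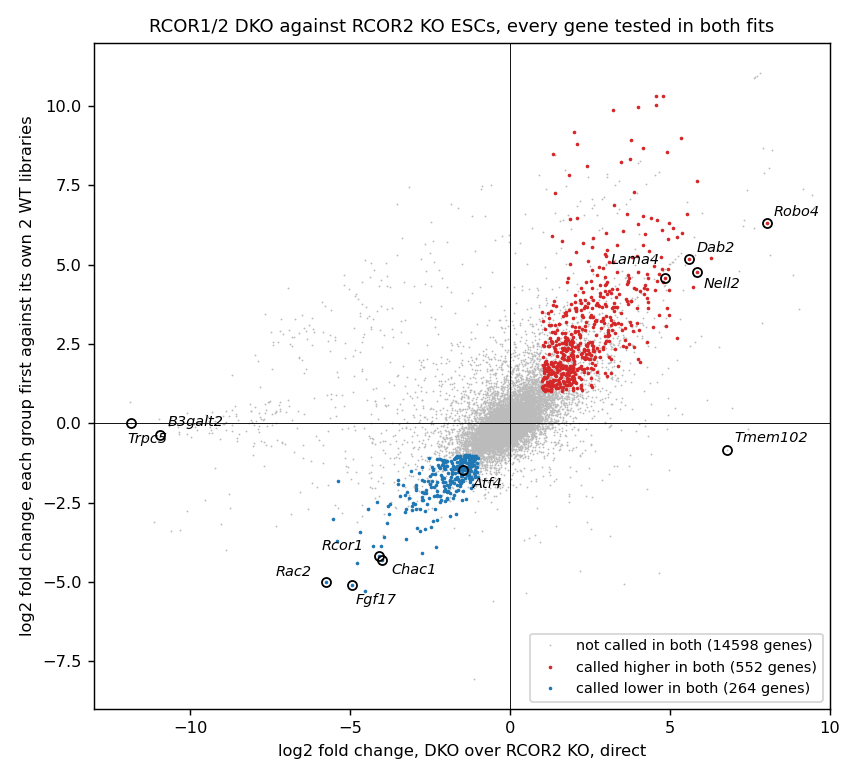
Each point is one gene, placed by its direct log2 fold change, DKO over RCOR2 KO (x axis), and by its log2 fold change against own WT (y axis), with 552 genes called higher in both in red, 264 called lower in both in blue and 2 genes beyond the axes. Dab2 and Rac2 keep their size on both axes, whereas B3galt2, Trpc5 and Tmem102 lie far from 0 on the x axis and near 0 on the y axis.

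Rcor1, the gene that only the DKO lacks (chr12:112277577-112354113, plus strand, mm9), was 50.4, 46.5, 52.4 and 52.4 normalised CPM in RCOR2 KO libraries 1 to 4 and 2.03, 3.33, 2.96 and 3.54 in DKO libraries 1 to 4. The groups did not overlap, and the difference was -4.09 ± 0.14 (log2 fold change ± SE, n = 4 and 4, adjusted p = 4.3e-10), or -4.17 ± 0.33 against own WT. Rcor2 was low in both groups, at 1.47, 4.28, 0.721 and 4.68 in RCOR2 KO and 2.91, 3.25, 3.29 and 2.30 in DKO, where WT ESCs had 82.6 to 109. Its difference of 0.08 ± 0.50 on the log2 scale was within the spread of the libraries. Rcor3, the remaining scaffold paralog, stayed at 7.74 to 9.32 in RCOR2 KO and 6.20 to 8.87 in DKO (-0.11 ± 0.13, adjusted p = 0.45).

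The RNA of the partner enzymes moved little. Kdm1a was 211 to 222 normalised CPM in RCOR2 KO and 203 to 227 in DKO, a difference of -0.01 ± 0.05 (adjusted p = 0.89). Hdac1 differed by 0.00 ± 0.04. Hdac2 had non-overlapping groups, 155 to 168 against 126 to 133, at -0.31 ± 0.05, a change short of the size threshold. Of 16 tested genes of the LSD1 and CoREST complexes only Rcor1 itself was called. None of the 17 genes of other co-repressors and none of the 12 enhancer enzymes was called in either direction. The protein levels of LSD1 were not part of these files.

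The cells of both groups carried the RNA of naive ESCs. Pou5f1, the core pluripotency factor OCT4, was 475, 451, 452 and 449.6 normalised CPM in RCOR2 KO and 394, 367, 357 and 357 in DKO, and did not overlap, at -0.30 ± 0.05 directly and -0.06 ± 0.10 against own WT. Nanog was 687 to 739.9 in RCOR2 KO and 937 to 1080 in DKO, 0.50 ± 0.05 directly and 0.45 ± 0.10 against own WT. Sox2 and Esrrb had direct differences of -0.60 ± 0.05 and -0.50 ± 0.06, which were 0.08 ± 0.10 and -0.12 ± 0.10 against own WT. None of these reached the size threshold. Of 14 naive pluripotency genes 1 was called in both differences, Nr0b1, which encodes the orphan receptor DAX1 and was lower at -1.29 ± 0.10 and -1.01 ± 0.20. Of 10 general pluripotency genes the only one called in both was Lin28a, an RNA-binding protein that blocks let-7 maturation. It was 122, 120.2, 114 and 121.5 in RCOR2 KO and 53.9, 46.2, 48.1 and 47.1 in DKO (-1.28 ± 0.06 and -1.71 ± 0.15).

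Many of the large rises stood at genes that were close to silent in RCOR2 KO cells. Dab2, an endocytic adaptor of visceral endoderm (chr15:6249789-6390709, plus strand, mm9), was 1.59, 1.23, 1.28 and 1.52 normalised CPM in RCOR2 KO and 65.9, 74.6, 65.2 and 67.0 in DKO. This was a 48.6-fold rise, 5.60 ± 0.10 on the log2 scale (adjusted p = 6.6e-13) and 5.18 ± 0.28 against own WT (adjusted p = 4.9e-10). It was 0.447 to 0.670 in RCOR1 KO and 0.194 to 1.04 over the 11 WT libraries, so DKO stood apart from every other genotype of this set. Lrp2, the receptor megalin, which works with DAB2 in endocytosis, was 14.2, 10.3, 17.1 and 14.6 in RCOR2 KO and 204.5, 222, 224 and 230.1 in DKO (3.98 ± 0.13, and 3.15 ± 0.32 against own WT). Most other endoderm genes were not called. Of 13 tested genes of primitive and visceral endoderm, 5 were higher and 1 lower directly, and 3 higher and 1 lower in both differences, with a median direct difference of 1.32 against -0.02 over all genes. The one lower was Apoe. The endoderm factor Gata4 was 3.69 to 5.43 in RCOR2 KO and 3.53 to 4.16 in DKO (-0.19 ± 0.16), and Gata6 was at or below 0.958 in all 8 libraries. Sox17 was called directly (3.23 ± 0.49) and missed the threshold against own WT (2.50 ± 0.79, adjusted p = 0.025).

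Of 13 tested basement membrane genes 3 were higher and 1 lower directly, and Lama4 was higher and Lama1 lower in both differences. Over all genes 11% were higher and 10.1% lower directly, and the list was not tested against these shares. Lama4 and some single genes that are named for the size of their change rose from near 0. Robo4, an endothelial receptor, had 0, 0.0535, 0 and 0.0452 normalised CPM in RCOR2 KO and 8.10, 7.49, 7.34 and 6.29 in DKO (8.02 ± 0.36, and 6.32 ± 1.31 against own WT). By the spans used here it lies inside Cdkn2d on the other strand, which does not show that the transcripts overlap. Lama4, the laminin alpha 4 chain of vascular basement membrane, was 0.342, 2.35, 1.28 and 2.26 against 49.3, 46.8, 40.3 and 42.2 (4.84 ± 0.41, and 4.57 ± 0.83). Pkhd1, which encodes fibrocystin of kidney and bile ducts, was 0.147 to 0.656 in RCOR2 KO and 13.6 to 19.01 in DKO (5.38 ± 0.27, and 6.01 ± 0.55). Dcdc2a, a doublecortin-domain gene, was 0.0535 to 0.407 against 10.5 to 10.9 (5.35 ± 0.28, and 8.99 ± 1.58), and Rhobtb1, which encodes a BTB-domain protein, was 0.0555 to 0.241 against 5.32 to 7.54 (5.23 ± 0.28, and 2.69 ± 0.61). Rhobtb1 also differed between the library sets. It was called lower in WT 6 and 7 (0.106 and 0.348) than in WT 8 and 9 (1.10 and 1.585), and was 1.34 to 1.80 in RCOR1 KO. The laminin chain of early embryonic basement membrane moved the other way. Lama1 was 256, 244, 255 and 235 in RCOR2 KO and 34.6, 39.2, 26.5 and 28.2 in DKO (-2.93 ± 0.11, and -1.94 ± 0.20).

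Epithelial genes split. Of 21 tested, 6 were higher and 5 lower directly (11% and 10.1% over all genes). In both differences 5 were higher and 1 lower (3.58% and 1.71% over all genes), and the direct median was 0.03. The 5 higher in both were the keratin gene Krt18, the tight junction genes Ocln (2.26 ± 0.13) and Marveld2 (1.90 ± 0.14), the epithelial transcription factor Grhl2 (2.31 ± 0.13) and the splicing regulator Esrp1 (1.42 ± 0.17). For Krt18, Ocln, Grhl2 and Esrp1 leaving out 1 library ended a call, and Esrp1 in DKO (27.3 to 31.3) lay within the WT range (14.3 to 41.5). Krt18 was 2.89, 4.12, 2.38 and 3.71 in RCOR2 KO and 14.2, 14.1, 20.7 and 19.9 in DKO (2.40 ± 0.19, and 2.06 ± 0.41 against own WT). Krt8, whose keratin pairs with that of Krt18 in filaments, was 22.9 to 30.6 in RCOR2 KO and 15.2 to 17.8 in DKO, at -0.70 ± 0.11 directly and -0.13 ± 0.23 against own WT. Ap1m2, a subunit of an epithelial sorting adaptor, was lower in both (-1.73 ± 0.18 and -1.08 ± 0.26). Cdh1, E-cadherin, was 1018 to 1081 in RCOR2 KO and 1066 to 1173 in DKO and was not called. Perp, a p53 target gene that encodes a desmosomal protein, rose from 1.55 to 2.57 to 25.3 to 34.9 (3.97 ± 0.16, and 3.65 ± 0.30).

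Neural, mesenchymal and blood genes rose in part. Of 15 tested neural genes 6 were higher and 2 lower directly (11% and 10.1% over all genes), and 3 were higher in both differences (3.58% over all genes). These were Nell2, a secreted neuronal protein, Gap43, a growth cone protein (3.54 ± 0.23, and 2.45 ± 0.37), and the neurofilament gene Nefl (1.85 ± 0.09, and 2.03 ± 0.40). Gap43 was 0.555 to 1.497 normalised CPM in RCOR2 KO, 11.6 to 13.25 in DKO, 5.84 to 8.43 in RCOR1 KO and 2.11 to 10.17 in WT. RCOR2 KO was below WT 6 and 7 without a call (-1.15 ± 0.275, adjusted p = 0.011), and DKO was above WT 8 and 9 (1.3 ± 0.25). The own-WT difference of Gap43 was made up of both. Gap43 was also called lower in WT 6 and 7 than in WT 8 and 9 (-1.1). Nell2 was 0.391, 0.321, 0.333 and 0.679 in RCOR2 KO and 26.3, 25.0, 25.4 and 23.8 in DKO (5.84 ± 0.17, and 4.78 ± 0.53). A separate list held 22 neurosecretory targets of REST, the DNA-binding repressor with which CoREST was first found. Of its 17 tested genes 2 were higher and 5 lower directly, and the one called in both was lower, the synaptic vesicle priming gene Unc13a (-2.75 ± 0.15, and -2.17 ± 0.24). Of 13 tested mesenchymal genes 6 were higher and none lower directly, and Mmp2, Cdh2 and Snai1 were higher in both. At Cdh2 and Snai1 the DKO libraries overlapped the range of WT 4 to 11. The fibroblast collagen genes Col1a2 and Col3a1 had too few counts to be tested. Of 12 tested endothelial and blood genes 4 were higher directly, and Gata1 (2.03 ± 0.19, and 3.83 ± 0.62) and Cd34 (2.37 ± 0.22, and 2.46 ± 0.50) were higher in both. By the spans used here Gata1 and Cd34 overlap a gene on the other strand. So do, among other rises, Lrp2, Pkhd1, Rhobtb1, Grhl2 and B2m. Among 10 tested trophoblast genes Gata3 rose in both differences, from 0 to 0.147 in RCOR2 KO to 3.74 to 4.50 in DKO (5.71 ± 0.39, and 4.29 ± 1.07). Hand1 was called directly (5.99 ± 0.44) and not against own WT (6.64 ± 2.08, adjusted p = 0.029). In bulk RNA, a few cells with much of a transcript and many cells with little of it cannot be told apart.

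**Figure D3:**
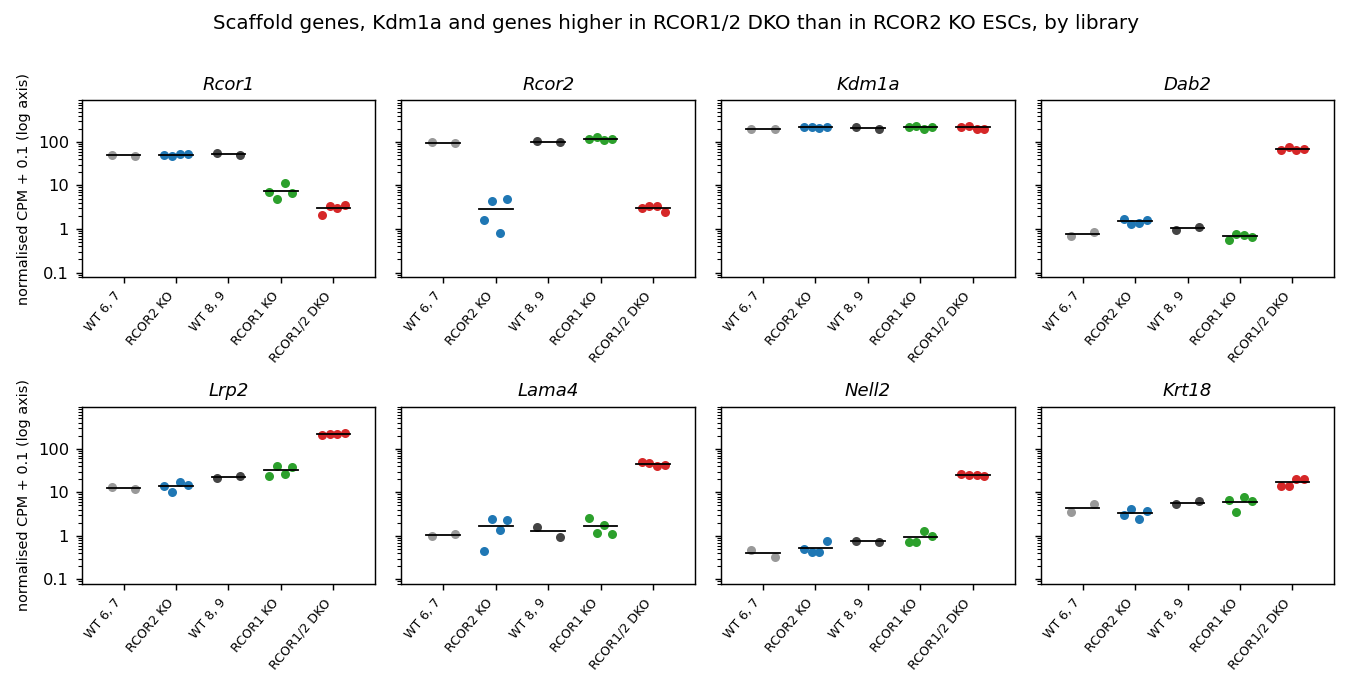
Points are libraries and the bar is the mean of the group, on a log axis of normalised CPM + 0.1, for WT 6 and 7, RCOR2 KO, WT 8 and 9, RCOR1 KO and DKO. Rcor1 is low in RCOR1 KO and DKO, Rcor2 is low in RCOR2 KO and DKO, Kdm1a is level, and Dab2, Lrp2, Lama4, Nell2 and Krt18 are high in the 4 DKO libraries.

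Many genes of antigen presentation were higher, at low levels. Of 13 tested, 8 were higher and 2 lower directly (median 1.40), and 4 were higher and none lower in both differences. B2m, the light chain of class I MHC, was 3.77, 5.83, 3.49 and 6.45 in RCOR2 KO and 19.5, 18.4, 19.8 and 21.0 in DKO (2.02 ± 0.18, and 2.41 ± 0.28). The others were the class I heavy chain gene H2-D1 (1.05 ± 0.24, and 1.58 ± 0.42), the invariant chain gene Cd74 (2.50 ± 0.26, and 2.56 ± 0.59) and Ciita, the class II transactivator (1.40 ± 0.24, and 3.11 ± 0.59). Interferon-stimulated genes did not follow. Of 19 tested, 2 were higher and 3 lower directly, and the 2 called in both were the poly-ADP-ribose polymerase family genes Parp12 (2.46 ± 0.16) and Parp14 (1.41 ± 0.08).

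Germline and cleavage-stage genes were called higher less often against own WT than directly. Of 22 tested germline genes 7 were higher directly and 3 against own WT, and Dazl, an RNA-binding protein of germ cells (1.83 ± 0.09, and 1.31 ± 0.21), and Brdt, a testis bromodomain protein (4.91 ± 0.29, and 3.64 ± 0.87), were higher in both. Of 10 tested cleavage-stage genes 8 were higher directly, with a median of 2.75, and none in both. Between the WT sets the same list had a median of -1.44, lower in WT 6 and 7. Zscan4c was 0 to 0.136 in RCOR2 KO and 1.45 to 2.79 in DKO (4.72 ± 0.49 directly, 2.72 ± 1.07 against own WT, adjusted p = 0.068). The X-linked Xlr genes stood among the largest direct rises. Xlr5a was 0 to 0.0978 in RCOR2 KO and 14.0 to 17.5 in DKO, Xlr5b was 0 to 0.0905 against 10.5 to 14.2, and Xlr3c was 0.171 to 0.561 against 17.3 to 19.1. Their differences against own WT were larger still, 8.68 ± 2.15, 8.61 ± 2.30 and 6.97 ± 1.70, but missed the threshold (adjusted p = 0.012, 0.017 and 0.011). Xlr5a was uneven in RCOR1 KO, at 0, 3.61, 0.053 and 4.41 in libraries 1 to 4. Zscan4 and Xlr genes have near-identical copies, so the split of reads among them is uncertain. AU015836, another X-linked gene, was 0 to 0.214 against 5.58 to 10.7 and was called in both (6.27 ± 0.47, and 5.22 ± 0.99).

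The falls were led by one group, the genes of the integrated stress response. In this response the transcription factor ATF4 is made when amino acids are short or protein folding fails, and it switches on amino acid synthesis and import, one-carbon metabolism and feedback regulators. ATF4 binds with C/EBP partners at a composite element whose core is written here as TGATGNAA. In the RefSeq promoters, from 250 bases before to 50 after the start, this motif was found on either strand in 6 of 18 stress response genes with a promoter entry (33.3%), namely Chac1, Slc7a11, Trib3, Atf3, Asns and Vldlr. It was found in 1304 of all 32851 promoters (3.97%), and by gene in 4.51% of all genes, in 341 of 11974 genes tested in both fits (2.85%), in 17 of 202 genes called lower in both differences (8.42%) and in 15 of 412 called higher in both (3.64%). The share was higher still in the cytosolic aminoacyl-tRNA synthetases, 5 of 11 genes (45.5%), a list of which 1 of 18 tested genes was called lower in both differences. A match is only a run of letters, and the longer form TGATGNAAT occurred in none of the 18 stress response genes and in 3 of the 11 synthetase genes. The promoters of 4 of the genes that fell are shown 5′ to 3′ on the strand of the gene, with every match to TGATGNAA or its reverse complement TTNCATCA in capitals. Their coordinates are of GRCm38.p6, a different build from the mm9 of the counts: Chac1 at chr2:119350992-119351291 (plus), Slc7a11 at chr3:50443564-50443863 (minus), Trib3 at chr2:152344011-152344310 (minus) and Atf3 at chr1:191183284-191183583 (minus).
Chac1: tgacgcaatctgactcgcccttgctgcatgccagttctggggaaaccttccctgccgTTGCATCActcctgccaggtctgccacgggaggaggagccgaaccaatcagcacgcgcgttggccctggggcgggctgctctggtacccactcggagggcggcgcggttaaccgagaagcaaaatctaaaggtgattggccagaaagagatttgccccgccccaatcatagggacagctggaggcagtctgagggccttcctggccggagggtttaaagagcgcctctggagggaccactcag
Slc7a11: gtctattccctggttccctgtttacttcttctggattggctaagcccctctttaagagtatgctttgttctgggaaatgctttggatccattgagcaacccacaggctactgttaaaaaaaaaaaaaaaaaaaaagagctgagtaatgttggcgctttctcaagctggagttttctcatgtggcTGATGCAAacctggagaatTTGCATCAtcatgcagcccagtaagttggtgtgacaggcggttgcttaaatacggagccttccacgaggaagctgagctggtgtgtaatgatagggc
Trib3: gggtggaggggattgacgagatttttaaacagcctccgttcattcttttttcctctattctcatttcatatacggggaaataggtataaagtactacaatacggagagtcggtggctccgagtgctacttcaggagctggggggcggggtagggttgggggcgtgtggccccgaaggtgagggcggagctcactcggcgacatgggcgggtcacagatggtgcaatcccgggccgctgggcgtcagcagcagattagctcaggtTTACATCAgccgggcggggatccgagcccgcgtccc
Atf3: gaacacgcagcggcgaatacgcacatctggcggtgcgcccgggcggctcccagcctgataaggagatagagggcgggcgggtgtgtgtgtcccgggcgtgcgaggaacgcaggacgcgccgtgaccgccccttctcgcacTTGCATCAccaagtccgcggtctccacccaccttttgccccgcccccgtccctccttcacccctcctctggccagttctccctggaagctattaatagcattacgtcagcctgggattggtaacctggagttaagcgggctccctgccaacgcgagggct
The match began 193 bases before the start site in Chac1, 66 and 47 bases before it in Slc7a11 and 110 bases before it in Atf3, and lay within the first transcribed bases of Trib3.

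Of the 20 stress response genes, all tested, 17 were lower and none higher in DKO directly, with a median of -1.42. Against own WT 10 were lower and none higher (median -1.10), and the same 10 were called in both differences. The list was already known from earlier results of these data to be low in DKO, so its direction is no independent evidence. Atf4 itself (chr15:80085614-80087975, plus strand, mm9) was 329.9, 233, 323 and 226 normalised CPM in RCOR2 KO libraries 1 to 4, against 256 to 351 in WT and 247 to 352 in RCOR1 KO. In DKO it was 103.5, 98.5, 102.5 and 96.4, below every library of the other 3 genotypes (-1.46 ± 0.13, adjusted p = 1e-05, and -1.47 ± 0.23 against own WT). RCOR2 KO libraries 1 and 3 were above libraries 2 and 4 for Atf4 and for several of its targets, the same pairs that deviated together over all genes, and DKO lay below both pairs. Not all members were at the WT level in RCOR2 KO. Against WT 6 and 7, Vldlr was called lower in RCOR2 KO (-1.23 ± 0.19), at 5.20 to 6.70 normalised CPM against 12.0 and 15.7. Chac1 (-0.80 ± 0.20, adjusted p = 0.017) and Psph (-0.54 ± 0.11, adjusted p = 0.0034) were lower without passing both thresholds, while Trib3 differed by -0.30 and Ddit3 by -0.07.

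The deepest falls of the group were at Chac1 and Slc7a11, which both bear on glutathione. Chac1, which degrades glutathione (chr2:119176978-119180062, plus strand, mm9), was 10.5, 9.14, 12.3 and 9.23 in RCOR2 KO and 0.522, 0.403, 0.969 and 0.672 in DKO, where WT ESCs had 16.4 to 39.5 (-3.99 ± 0.23, adjusted p = 1.1e-08, and -4.30 ± 0.33). Slc7a11, the cystine importer, was 4.70, 2.08, 4.66 and 5.34 against 0.0804, 0, 0.194 and 0.103 (-5.42 ± 0.50, and -3.72 ± 0.66). Both groups were free of overlap at both genes.

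Regulators of the response fell with them. Trib3, a pseudokinase that restrains ATF4, was 42.7, 30.8, 49.2 and 34.5 in RCOR2 KO and 8.64, 9.08, 9.93 and 8.82 in DKO (-2.10 ± 0.14, and -1.83 ± 0.23). Ddit3, the pro-apoptotic factor CHOP, was 5.63 to 6.95 against 0.756 to 1.87 (-2.19 ± 0.23, and -2.31 ± 0.34). Atf3 (-1.79 ± 0.28, and -2.35 ± 0.42), the mTORC1 inhibitor gene Ddit4 (-1.21 ± 0.17, and -2.05 ± 0.37) and the lipoprotein receptor gene Vldlr (-1.98 ± 0.22, and -2.16 ± 0.29) were also called in both.

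Among the metabolic members, Mthfd2, the mitochondrial folate enzyme, was 125, 69.2, 132 and 75.7 in RCOR2 KO and 35.4, 29.8, 34.4 and 34.3 in DKO (-1.57 ± 0.23, and -1.98 ± 0.33). Psph, the last enzyme of serine synthesis, was 23.1 to 27.2 against 8.57 to 11.2, and 33.9 to 58.3 in WT (-1.35 ± 0.10, and -1.24 ± 0.16). Psat1 and Shmt2, of the same serine and glycine pathway, were called directly (-1.38 ± 0.06 and -1.23 ± 0.08) and stopped short of the size threshold against own WT, at -0.96 ± 0.11 and -0.84 ± 0.12. Asns, asparagine synthetase, was 883, 661, 860.4 and 626 against 409, 382, 397 and 412 without overlap, but at -0.91 ± 0.11 it was not called. Atf5 and Cebpb were called lower directly (-1.60 ± 0.12 and -1.04 ± 0.24) with own-WT values of 0.23 ± 0.21 and 0.44 ± 0.38, and both were called higher in WT 6 and 7 than in WT 8 and 9, by 1.82 and 1.46. Of 18 cytosolic aminoacyl-tRNA synthetases, many of which are ATF4 targets, 2 were called lower directly, Cars and Sars, and Cars alone in both (-1.20 ± 0.07, and -1.03 ± 0.12), with a list median of -0.51.

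**Figure D4:**
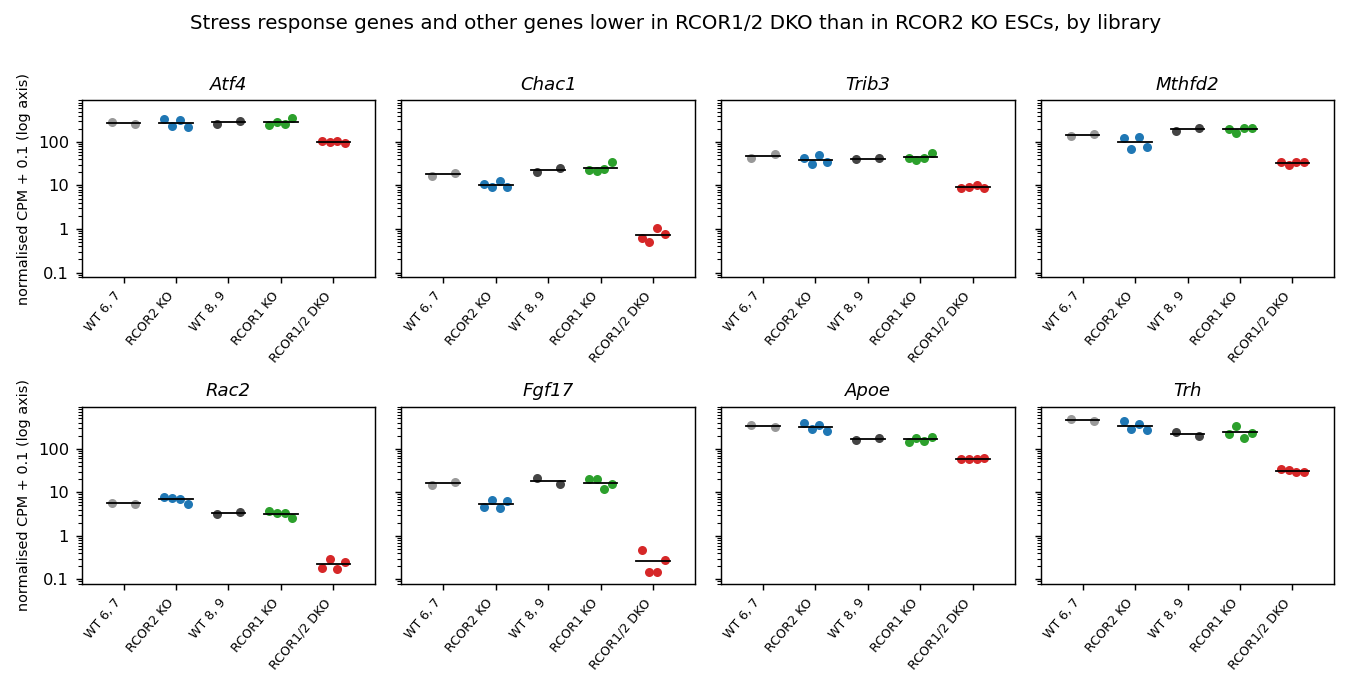
Points are libraries and the bar is the mean of the group, on a log axis of normalised CPM + 0.1, for WT 6 and 7, RCOR2 KO, WT 8 and 9, RCOR1 KO and DKO. For Atf4, Chac1, Trib3, Mthfd2, Rac2, Fgf17, Apoe and Trh the 4 DKO libraries lie below every library of the other groups.

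Outside the stress response the deepest falls called in both differences included signalling genes. Rac2, a small GTPase of blood cells (chr15:78389599-78403213, minus strand, mm9), was 7.85, 7.49, 6.93 and 5.27 in RCOR2 KO and 0.0804, 0.202, 0.0727 and 0.155 in DKO (-5.74 ± 0.28, and -4.99 ± 0.39). Fgf17, an FGF ligand, was 4.53, 6.44, 4.27 and 6.38 against 0.382, 0.0504, 0.0485 and 0.181 (-4.92 ± 0.42, and -5.09 ± 0.54). WT ESCs had 8.88 to 21.6, and the gene was already called lower in RCOR2 KO against WT 6 and 7 (-1.58 ± 0.29). It was the one gene called in both among 18 tested genes of FGF and ERK signalling. The groups did not overlap at either gene. Trpm1, a cation channel, was 36.1 to 43.6 against 0.569 to 1.08 (-5.55 ± 0.17, and -3.0 ± 0.42), and Nod2, an innate immune sensor, was 7.89 to 12.8 against 0.442 to 0.775 (-4.15 ± 0.22, and -2.48 ± 0.39).

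A pair of abundant transcripts fell as well. Apoe, an apolipoprotein, was 392, 281, 354 and 257 against 57.2, 58.8, 59.2 and 61.0 (-2.43 ± 0.13, and -1.37 ± 0.20). Trh, the precursor of thyrotropin-releasing hormone, was 426, 284, 363 and 271 against 33.4, 31.9, 28.7 and 29.9 (-3.43 ± 0.16, and -2.28 ± 0.33). DKO lay below every RCOR2 KO library at both genes.

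Targets of Wnt signalling, which the GSK inhibitor in the medium switches on, were lower in part. Of 13 tested, 1 was higher and 4 lower directly (11% and 10.1% over all genes), with a median of -0.92. In both differences 2 were lower (1.71% over all genes). The transcription factor gene Sp5 was 22.8, 12.3, 20.6 and 13.2 against 1.04, 0.731, 0.654 and 0.672 (-4.44 ± 0.25, and -2.70 ± 0.39), and Cdx1 was 6.02 to 11.8 against 0.924 to 2.45 (-2.32 ± 0.31, and -3.90 ± 0.52). Axin2, the feedback inhibitor, was called directly only (-1.89 ± 0.11, and -0.93 ± 0.17). Against own WT the median of the list was 0.01. Lef1, a factor through which Wnt acts, was higher than in RCOR2 KO in both (1.95 ± 0.17, and 1.73 ± 0.34), with DKO near the WT level as set out further on.

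Imprinted genes moved both ways. Of 31 tested, 11 were higher and 6 lower directly (11% and 10.1% over all genes), with a median of 0.51. In both differences 5 were higher and 3 lower (3.58% and 1.71% over all genes). Peg10, a retrotransposon-derived placental gene, was 24.1, 10.4, 21.8 and 10.04 in RCOR2 KO and 126, 136, 161 and 159 in DKO (3.15 ± 0.33, and 3.11 ± 0.71). Sgce, its paternally expressed neighbour on the other strand, was 0.611 to 1.44 against 4.00 to 7.79 (2.63 ± 0.30, and 2.03 ± 0.54). Ndn (1.45 ± 0.12), Peg12 (1.97 ± 0.30) and the growth factor gene Igf2 (1.76 ± 0.35) were higher in both as well.

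The 3 imprinted genes called lower in both differences lie next to each other on chromosome 7. They were the cell cycle inhibitor gene Cdkn1c (chr7:150644244-150646955), the transporter gene Slc22a18 (chr7:150659694-150685237) and Phlda2, a restrainer of placental growth (chr7:150687453-150688429, all mm9), and they are maternally expressed. Phlda2 was 41.1, 29.6, 39.9 and 25.8 in RCOR2 KO and 5.10, 6.05, 5.16 and 5.12 in DKO (-2.66 ± 0.15, and -3.34 ± 0.31). It was 9.08 and 10.7 in WT 6 and 7, so that RCOR2 KO was called higher than its WT (1.78 ± 0.23), and 14.6 and 17.8 in WT 8 and 9, so that DKO was called lower than its own (-1.56 ± 0.21). Cdkn1c was 5.48 to 7.62 against 0.242 to 1.37 (-3.16 ± 0.37, and -2.34 ± 0.49), and Slc22a18 was 7.04 to 11.1 against 0.0517 to 0.848 (-4.27 ± 0.43, and -3.87 ± 0.55). The tRNA synthetase gene Cars lies beside them (chr7:150743135-150785995, mm9). Kcnq1ot1, the long noncoding RNA that silences this domain on the paternal copy, was 298.5 to 315.5 in RCOR2 KO and 539.6 to 725 in DKO. It was called higher directly (1.13 ± 0.08) and not against own WT (0.83 ± 0.20). Whether these levels bear on each other was not tested.

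Several of the largest direct falls were genes of the library sets. Rtl1 (8.21 to 14.5 normalised CPM in RCOR2 KO), Trpc5 (10.2 to 12.1), Gp1ba (6.51 to 7.33), Lrrtm2 (5.60 to 6.63) and B3galt2 had no count in any DKO library, and Xist was 35.4 to 46.0 against 0.403 to 1.55. Xist overlaps Tsix on the other strand and was 28.3 and 40.0 in WT 6 and 7 and 0.734 and 0.860 in WT 8 and 9. Rptn, Hpgds, Dnase1 and Apba1 had the same pattern. In the other direction Tmem102 was 0 to 0.166 in RCOR2 KO and 8.38 to 9.94 in DKO, but 0.0528 and 0.058 in WT 6 and 7 and 12.1 and 11.4 in WT 8 and 9. None of these 11 genes was called against own WT.

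The lists not yet described held few genes called in both differences. Among 11 tested formative and primed epiblast genes Lef1 and Sox3 were higher in both, and 3 were higher and 1 lower directly. Among 16 tested p53 targets 2 were higher directly and Perp in both. Of 14 genes of the Nodal and BMP pathways 2 were higher and 2 lower directly, of 12 cardiac genes 3 and 3, of 7 early mesoderm genes none and 2, and of 5 sex chromosome genes 1 and 1, none of them in both. None of the 18 glycolysis, 20 proliferation, 20 lysosome and 12 housekeeping genes was called directly. Against own WT 3 of the 18 glycolysis genes (list median -0.49) and 1 of the 20 lysosome genes were lower.

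A difference between DKO and RCOR2 KO can also arise on the RCOR2 KO side. Against WT 6 and 7, RCOR2 KO had 127 of 16543 genes higher (0.768%) and 85 lower (0.514%). Against WT 8 and 9, DKO had 1728 higher (10.4%) and 713 lower (4.31%). Of the 39 named rises 6 were not called in DKO against WT 8 and 9, and these 6 are given here after their values were seen. Lef1 was 1.27 to 1.69 normalised CPM in RCOR2 KO and 5.35 to 6.95 in DKO, and 2.78 to 7.64 in WT. It was called lower in RCOR2 KO against WT 6 and 7 (-1.36 ± 0.24) and differed by 0.37 ± 0.24 between DKO and WT 8 and 9 (adjusted p = 0.20). Sox3 was 0.160 to 0.317 in RCOR2 KO, 1.40 to 2.52 in DKO and 0.448 to 2.18 in WT, at -2.17 ± 0.38 and 0.42 ± 0.33 in the same order. Igf2 was 0.293 to 0.633, 1.06 to 2.30 and 0.888 to 2.32, at -2.16 ± 0.35 and 0.16 ± 0.35. At these 3 genes RCOR2 KO was the group that stood apart from WT. Esrp1 (0.56 ± 0.20), Peg12 (1.18 ± 0.38) and H2-D1 (0.83 ± 0.31) were above WT 8 and 9 in DKO without a call and, on average, below WT 6 and 7 in RCOR2 KO without a call (-0.62, -0.90 and -0.75). The 28 named falls were all called in DKO against WT 8 and 9.

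**Figure D5:**
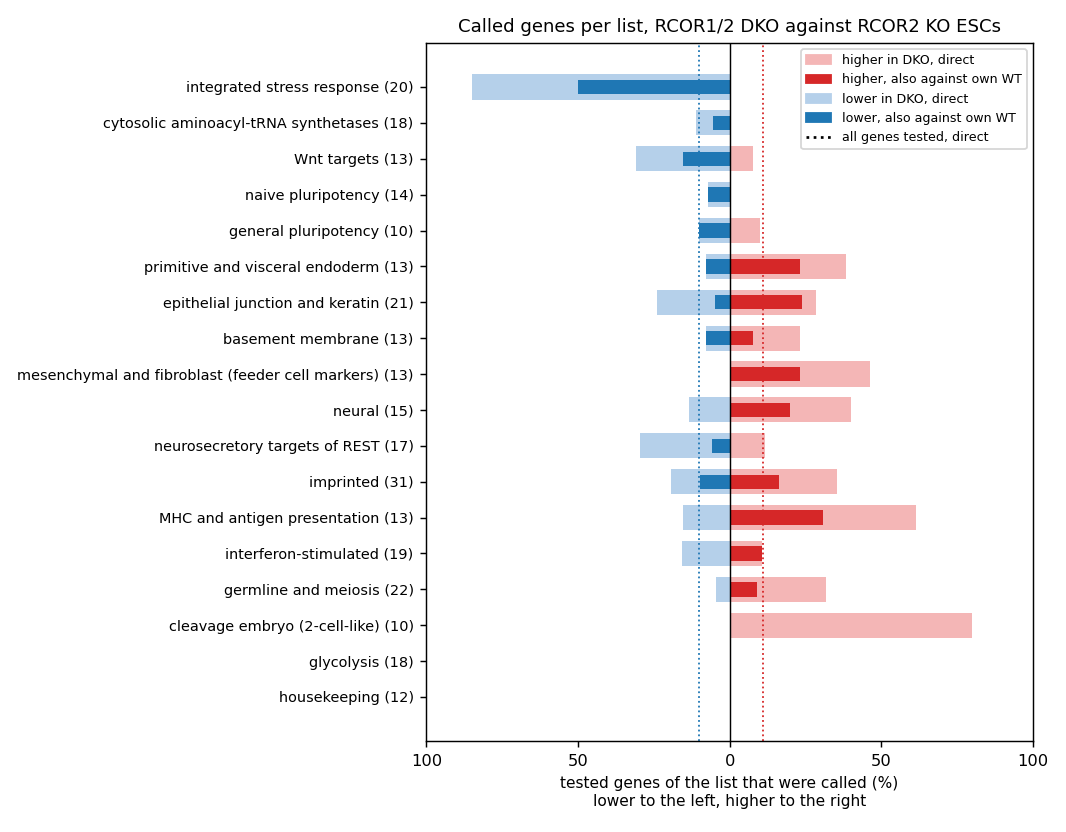
Bars give, for each gene list, the percentage of its tested genes called lower (to the left) and higher (to the right) in DKO against RCOR2 KO, pale for the direct difference and dark for genes called in both differences, with dotted lines at 11% and 10.1% for all genes. The stress response list has 17 of 20 genes lower and none higher, while the cleavage-stage list has 8 of 10 higher directly and none in both.

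Loss of RCOR1 where RCOR2 was present changed almost nothing at these thresholds. In RCOR1 KO against WT ESCs 4 to 11, no gene was higher and 1 of 16029 (0.00624%) was lower, Rcor1 itself, at 4.79 to 11.2 normalised CPM (-2.77 ± 0.17). At an unadjusted p below 0.05 there were 3460 genes, and DESeq2 called 12 higher and 202 lower. Those WT libraries span both library sets. With WT 8 and 9 alone no gene was called, not even the deleted Rcor1, so that fit had too little power to bear on the question. Whether RCOR1 loss acted differently without RCOR2 was tested as an interaction, the DKO to RCOR2 KO difference minus the RCOR1 KO to WT difference. It called 689 of 16029 genes higher (4.3%) and 399 lower (2.49%). For Dab2 the interaction was 5.93 ± 0.35 (adjusted p = 2.2e-09), for Lama4 4.40 ± 0.56, for Atf4 -1.43 ± 0.16 (adjusted p = 2e-06), for Chac1 -4.08 ± 0.32 and for Fgf17 -4.79 ± 0.43. Rcor1 RNA was itself lower in DKO than in RCOR1 KO, with an interaction of -1.31 ± 0.23 (adjusted p = 0.00042). Because these differences share libraries with the direct one, no count of genes common to them is given. Tmem102, a gene of the library sets, was also called in the interaction (6.72 ± 1.51), and its RCOR1 KO libraries read 8.69 to 10.8, close to DKO. As WT 4 to 11 span both library sets, set differences can enter these calls. A form within the library sets, which was not planned, took DKO minus RCOR1 KO and subtracted RCOR2 KO minus WT 6 and 7. It called 867 of 16543 genes higher and 402 lower.

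LSD1 KO ESCs share no library with the comparison and ask whether the same genes move when the enzyme itself is deleted. The paper's Western blots show that DKO cells also hold less LSD1 protein, so loss of the scaffolds and of the enzyme are not separate here. In 6 LSD1 KO against 3 WT libraries (WT 1 to 3), 1499 of 15222 genes (9.85%) were higher and 951 (6.25%) lower. Of the 552 genes higher in both differences, 541 were tested there, and 363 (67.1%) were also higher and 5 lower, where 9.81% of all genes tested were higher. These 363 made up 25.1% of the LSD1 KO rises. Of the 264 genes lower in both, 263 were tested, and 169 (64.3%) were also lower and 1 higher, where 6.38% of all genes were lower. These 169 made up 18% of the LSD1 KO falls. The count of LSD1 KO falls rested in part on single WT libraries, with 612 without WT 1 and 1441 without WT 2.

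By gene, Dab2 was 0.249 to 0.398 in WT 1 to 3 and 8.02 to 23.3 in LSD1 KO (5.62, adjusted p = 1.7e-08). The LSD1 KO and WT 1 to 3 libraries, unlike the other ESC libraries, hold no count on unplaced contigs, so their levels are not compared with those of DKO. Lama4 (5.54), Nell2 (4.89), Pkhd1 (5.37) and Krt18 (2.40) were also higher in LSD1 KO. Of the 20 stress response genes 15 were lower and none higher there, with Chac1 at -2.97, Trib3 at -2.23 and Slc7a11 at -3.16. Fgf17 (-4.66) was lower too. Some genes called in both differences had no call in LSD1 KO against WT. Snai1 was -0.11 and Cdh2 0.23 there (adjusted p = 0.84 and 0.39), where DKO was called higher than WT 8 and 9 at both (1.91 ± 0.48 and 2.32 ± 0.28). This rests on the choice of WT libraries. Snai1 was 0.367 and 0.752 in WT 8 and 9, and Cdh2 was 2.86 and 1.67. Over WT 4 to 11 Snai1 was 0.214 to 1.69 and Cdh2 1.67 to 11.2, and DKO (1.60 to 2.53 and 8.95 to 12.7) overlapped these ranges. Snai1 and Cdh2 were picked out after their values were seen, and whether their response to the 2 losses differs was not tested. Lef1 (-0.22), Sox3 (-1.10), Esrp1 (-0.04) and Peg12 (0.34) had no call in LSD1 KO either, and these are genes at which DKO was not called different from its own WT.

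The DKO genotype was sequenced a further time in a DKO line that carries a doxycycline-inducible LSD1 gene, left without doxycycline. In its 4 libraries Dab2 was 81.1, 72.1, 53.2 and 53.2 normalised CPM, Lama4 31.6 to 54.8 and Nell2 27.2 to 33.2. Atf4 was 144, 126, 101 and 98.8, Chac1 0.751 to 2.75, Rac2 0.119 to 0.259 and Fgf17 0.0369 to 0.172. All of these lay on the DKO side of the RCOR2 KO range. Kdm1a was 249 to 258 in this line, above the 203 to 227 of the DKO libraries.

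In EBs 4 DKO libraries were compared with the 2 libraries labelled RCOR2 KO. The latter still held Rcor2 at 52.2 and 43.9 normalised CPM, against 125 and 134 in WT EB libraries 6 and 7 and 2.15 to 5.24 in DKO EBs. Whether their label is wrong or the deletion was incomplete cannot be told apart here, and every EB value below is one between DKO EBs and EBs that hold part of the WT level of Rcor2, not the contrast of the ESCs. Of 16845 genes 1522 (9.04%) were higher and 1112 (6.6%) lower in DKO EBs. Of the 552 genes higher in both ESC differences, 535 were tested in EBs, and 143 (26.7%) were also higher and 56 (10.5%) lower, where 9.33% of all genes were higher. Of the 264 lower, 258 were tested, and 52 (20.2%) were also lower and 24 (9.3%) higher, where 6.12% of all genes were lower. Without RCOR2 KO EB library 2 the count of EB rises was 952.

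Genes from the ESC comparison divided into those that kept their difference in EBs and those that did not. Robo4 (4.67), Pkhd1 (4.42) and Nell2 (1.85) were higher in DKO EBs, Robo4 with 1.63 to 2.92 against 0.118 and 0.0555. Sp5 was lower (-4.78), at 0.130 to 1.12 against 20.6 and 8.97. Dab2 was 36.7 to 38.4 in DKO and 30.5 and 36.8 in the EBs labelled RCOR2 KO (0.16, adjusted p = 0.67). Atf4 was 124 to 154 against 131 and 122 (0.20), and Rac2 and Fgf17 had no call. Krt18 was lower in DKO EBs, 77.01 to 141 against 220 and 577 (-1.85), the opposite of its direction in ESCs.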

How the data were processed

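Total RNA of 112 libraries in 34 groups was depleted of ribosomal RNA and made into strand-specific, paired-end libraries. The authors trimmed the reads with Trim Galore, aligned them to mm9 with STAR 2.7.9a and removed duplicates with Picard 2.25.5. They counted per gene on the reverse strand with featureCounts, and the deposited files hold these raw counts with no normalization. Of the counts from 2 to 39, 75.6% to 79.0% were even in the 8 libraries. The 2 reads of a pair thus seem to have been counted singly, which would make counts larger than the number of fragments. The fit with counts halved bears on this. Counts of 25209 genes per library were read here as deposited, and levels were given as TMM-normalised CPM.

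The 4 DKO and 4 RCOR2 KO libraries (34884745 to 46934569 counts) were fitted alone with edgeR 4.0.16 (limma 3.58.1, R 4.3.3; filterByExpr, TMM, robust quasi-likelihood F test), and genes with an adjusted p (Benjamini-Hochberg) under 0.01 and a log2 fold change beyond 1 either way were called. SEs were taken as the log2 fold change over the square root of F. The own-WT difference, (DKO minus WT 8 and 9) minus (RCOR2 KO minus WT 6 and 7), was fitted with these WT and the RCOR1 KO libraries. It was an alternative in the original design and was read beside the direct difference after the library sets were seen. The interaction and RCOR1 KO were fitted with WT 4 to 11, LSD1 KO with WT 1 to 3, and EBs with RCOR1 KO EBs. DESeq2 1.42.0, other size factors, no filter, other reference libraries, a replicate block and leaving out libraries were tried as alternatives. The scripts were tested on simulated data.

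Named genes were the complex members, up to 12 genes each way with the largest direct change, a mean of at least 5 normalised CPM in one group and no overlap, and up to 5 called members of each list with the list's first genes. Genes named beyond this rule, among them most of those called in both differences, the library-set genes and those set beside LSD1 KO and EBs, were chosen after their values were seen. The comparison and the gene lists were themselves chosen with earlier results of these data known.

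Same-numbered DKO and RCOR2 KO libraries did not deviate together (r from -0.116 to 0.0188 over 9645 genes), so the numbers were not taken as pairs. LSD1 KO and WT libraries of one number did (r = 0.275, 0.132 and 0.246), and so did the EB libraries 1 and 2 (r = 0.133). Motifs were searched in RefSeq GRCm38.p6 promoters. Guide sequences were not used here, and a few genes that met the rule are not reported here.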

Additional observations from a re-analysis of the deposited data

Results flagged for a closer look

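Within groups of 4 libraries, 67 groups of levels were examined for a library far from the others, and 2 were found, where chance gives about 1 in 20. Pou5f1 was 475 normalised CPM in RCOR2 KO library 1, with the next library at 452.3, and Phlda2 was 6.05 in DKO library 2, with the next at 5.16.

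The interaction of RCOR1 and RCOR2 loss, in edgeR's quasi-likelihood test, called 689 genes higher and 399 lower (867 and 402 when fitted within the library sets). The contrast crosses the library sets, so part of these calls may be set differences. By the same rule of level and size as for the direct difference, the largest positive values were those of Adgrf5 (8.39 on the log2 scale), Robo4 (7.39), Tmem102 (6.72), Xlr5b (6.61), Xlr5a (6.50) and AU015836 (6.42). Tmem102 differed in the same way between the WT library sets, and the Xlr genes have near-identical copies. Adgrf5 was called in both the direct and the own-WT difference, but its direct difference was 4.90 ± 0.50. The rest of its interaction is the RCOR1 KO to WT difference (-3.47 ± 1.20, adjusted p = 0.12), which rests on few counts and on the WT libraries used. Adgrf5 was 0 to 0.199 normalised CPM in RCOR1 KO, 0.0524 and 0.0537 in WT 8 and 9, and 2.99 and 3.60 in WT 10 and 11. Large negative values were those of Rac2 (-5.58), Fgf17 (-4.79), Sp5 (-4.26), Nod2 (-4.08) and Chac1 (-4.08), all called lower in both differences.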

How the results depend on the processing

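The direct counts of 1690 and 1550 stayed within 1.5 times of themselves with DESeq2 (1761 and 1590), DESeq2 size factors (1706 and 1538), no filter (1814 and 1761), counts halved (1560 and 1387), Rn45s left out, more groups in the fit and each library left out (1575 to 1777 and 1494 to 1586). They moved to 810 and 354 against own WT, and without genes that overlap another strand's gene the count lower moved to 1016. Of 115 named genes, 87 kept their side of the threshold against own WT, 17 lost a direct call and 11 others with a direct call lost it and changed sign: Atf5 (0.23), Cebpb (0.44), Zscan4f (-1.01), Rtl1 (0.68), Trpc5 (0.0047), Lrrtm2 (0.14), Tmem102 (-0.83), Rptn (3.44), Hpgds (2.91), Dnase1 (3.28) and Irf7 (4.34). The cause was not tested.

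Leaving out 1 library moved the own-WT counts between 484 (without WT 9) and 820 higher and between 216 (without WT 6) and 380 lower, and the counts called in both between 367 and 581 and between 172 and 281. The interaction kept 537 to 664 higher and 346 to 421 lower. DESeq2 called 12 higher and 202 lower in RCOR1 KO, and 0 were called lower with WT 8 and 9 alone, a fit that missed Rcor1 as well. The LSD1 KO counts ranged from 1272 to 1618 and from 612 (without WT 1) to 1441 (without WT 2), and the EB counts from 952 (without RCOR2 KO 2; 978 without RCOR2 KO 1) to 1276 and from 796 to 1003.

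With the replicate number as a block the direct counts were 1587 and 1457. For LSD1 KO, whose numbers pair with those of WT, the block gave 1163 and 715, and for EBs 1246 and 943, all within 1.5 times. Depth limits genes near 0 in one group, where the fold depends on a few counts.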

Other observations

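By chromosome, the median direct log2 difference of DKO over RCOR2 KO was 0.31 over 561 tested genes of the X chromosome, and 0.10 against own WT, where all genes had medians of -0.02 and -0.00197. On chromosome 6 it was -0.13 over 731 genes, and -0.21 against own WT.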
